A study of Mus musculus with 6 samples.

Results

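The locus around Men1 and Sf1 on mouse chromosome 19 was described through the distal ends of promoter interactions measured by HiCap, a method that joins Hi-C with a 4-cutter restriction enzyme to sequence capture of promoters. Its members are the distal regions that start between positions 6000000 and 6500000 of chromosome 19 in the mm9 build and that were paired with the same promoter fragment in both HiCap replicates. The members were thus chosen by the replicated HiCap listings: 222 of 71955 distal regions met the rule, in 463 of 94896 pairs, and such pairs are referred to as called. All libraries came from R1, a line of mouse embryonic stem cells (mESCs) kept undifferentiated in serum with LIF, with no treatment or genetic change named in the labels, so the values describe a single cell line. HiCap was listed for each of 2 biological replicates and Hi-C, without capture, as a single list that pools 2 replicates, while the Capture-C samples of the series were not analysed here. The study used MboI, which cuts at GATC, so the resolution is the MboI fragment, and each listed interaction joins a promoter fragment that the capture probes targeted to a distal fragment.

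A chromatin fibre folds so that sites far apart along the DNA can lie close together in the nucleus, and crosslinking followed by ligation records such proximity as chimeric DNA molecules. Promoters can meet enhancers, other promoters and sites bound by CTCF, a zinc finger protein that together with cohesin marks the base of many loops. Men1 codes for menin, a tumour suppressor that acts as a scaffold in histone methyltransferase complexes, and Sf1 codes for splicing factor 1, which recognises the branch point of introns at an early stage of splicing. The lists hold positions and no read numbers, so the depth behind a single pair is unknown and a pair is either listed or not. Replicate 1 listed 499746 pairs, replicate 2 listed 553977 and Hi-C listed 74807.

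Of the 222 members, 2 were linked to 30 or more promoter fragments, and their sequences are shown because the account of the locus turns on them. The Sf1 intron region (803 bp, a single MboI fragment inside an intron of Sf1) was linked to 31 promoter fragments, and the Gm14963 region (1740 bp, MboI fragments of 141 and 1599 bp that overlap an exon of the long intergenic non-coding RNA Gm14963) was linked to 30. The start of each on the plus strand of the NCBIM37 (mm9) reference is printed 5′ to 3′ as chr19:6366974-6367273 and chr19:6268157-6268456, counted from 1, with MboI sites and a match to the CTCF core in capitals.
Sf1 intron region: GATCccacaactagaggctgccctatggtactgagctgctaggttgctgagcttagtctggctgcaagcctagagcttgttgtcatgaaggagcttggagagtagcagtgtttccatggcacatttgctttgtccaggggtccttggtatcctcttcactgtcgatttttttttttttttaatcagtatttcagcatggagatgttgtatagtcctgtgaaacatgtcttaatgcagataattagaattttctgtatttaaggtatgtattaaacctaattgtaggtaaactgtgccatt
Gm14963 region: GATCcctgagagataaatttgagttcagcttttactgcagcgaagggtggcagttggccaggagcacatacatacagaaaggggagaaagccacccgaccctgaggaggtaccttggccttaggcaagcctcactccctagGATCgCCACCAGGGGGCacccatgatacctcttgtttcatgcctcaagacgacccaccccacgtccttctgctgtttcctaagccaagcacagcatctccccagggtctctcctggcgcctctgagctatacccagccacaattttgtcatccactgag

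The CTCF core was searched as the letters CCANNAGNNGGC on both strands. The Gm14963 region held 1 match, CCACCAGGGGGC at position 147 of the region on the plus strand, a single base after its inner MboI site, and the Sf1 intron region held none. A match is a description of the letters only, and occupancy was not measured. In all, 9 of 222 members (4.05%) held the core, compared with 6.49% of all called distal regions, 12.7% of those of 1500 to 2000 bp and 7.64% of those of 600 to 1000 bp. The nearest members with the core on either side of the Gm14963 region lay in Atg2a, with the match at chr19:6261141-6261152 on the minus strand, and in Ehd1, with the match at chr19:6287595-6287606 on the minus strand, and each was linked to few promoters. The matches are given with their flanks, each on its own strand with the core in capitals. The search fixed every letter of the core except those at N, so likeness at the fixed letters was set in advance.
Gm14963 region, 30 promoters: ctaggatcgCCACCAGGGGGCacccatgat
Atg2a exon, 1 promoter: ccctggaggCCAGAAGAGGGCactggatcc
Ehd1 intron, 2 promoters: agcaggttcCCACCAGGAGGCtgctggagg
Searched in the same way, the octamer ATTTGCAT bound by POU factors was in 2 members (0.901%, against 3.29% of all called regions) and the Esrrb site TCAAGGTCA in 6 (2.70%, against 2.34%), none of them among the members with 10 or more promoters. The G+C content was 42.8% in the Sf1 intron region, with 5 CpG dinucleotides, and 47.3% in the Gm14963 region, with 26, beside a median of 50.5% over the members. Every stretch of 31 bases in the Sf1 intron region occurred once in the genome, as did 85.0% of those in the Gm14963 region.

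Members were short and mostly linked to few promoters. Their lengths ran from 30 to 2656 bp with a median of 483.5 bp, and 213 of them were single MboI fragments. By the GENCODE annotation 97 overlapped an exon, 79 lay in introns and 46 were intergenic. A single promoter was linked to 139 members (62.6%), compared with 84.6% of all called distal regions, and 8 members had 10 or more promoters, a number that 0.495% of all called regions reached. Both percentages rest on the listings that chose the members and are given as a description. Below the regions with 31 and 30 promoters the next had 14, so the limit of 30 did not divide close values. At the edges of the window the members just inside and the called regions just outside, at 5998595 and 6504389, had 1 promoter each.

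**Figure D1:**
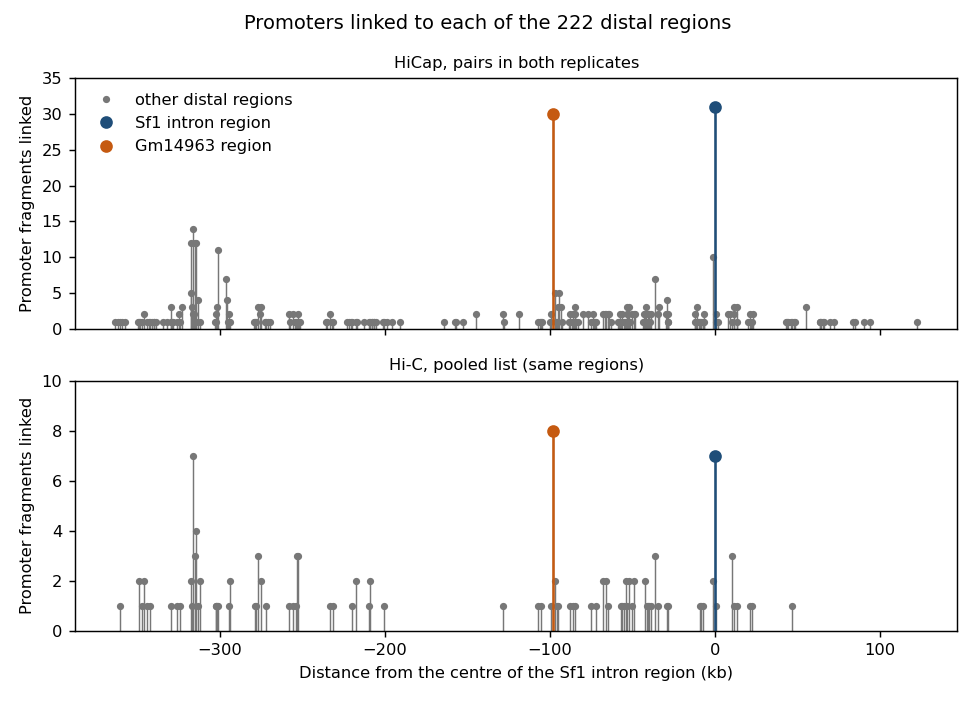
Each stem is 1 of the 222 distal regions, placed by its distance in kb from the centre of the Sf1 intron region, and its height is the number of promoter fragments linked to it in both HiCap replicates (top) or in the pooled Hi-C list (bottom). The Sf1 intron region (31) and the Gm14963 region (30) stand above the next region (14) in HiCap, and in Hi-C the same regions have 7 and 8 promoters.

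The Sf1 intron region (chr19:6366973-6367776 in the lists, which count starts from 0) was linked to 50 promoter fragments in replicate 1, to 46 in replicate 2 and to 31 in both, from 20 genes. Hi-C listed 7 promoters for it. The distances between fragment midpoints ran from 2.65 to 764 kb with a median of 51.3 kb, and 18 promoters lay to its left and 13 to its right. Distances over 100 kb made up 10 of the 31 pairs, and 2 exceeded 500 kb. These were the promoters of Bad, which codes for a pro-apoptotic member of the Bcl-2 family, at 649 kb, and of Macrod1, which codes for a hydrolase that removes ADP-ribose, at 764 kb, and neither was listed in Hi-C. The Bad fragment also holds a start site of Gpr137. The other 29 linked promoters lay in a span of 361 kb that held 42 promoter fragments listed in any HiCap replicate, and captured promoters without a listing are not counted. A median of 9 listed promoters lay between the region and its partner, and up to 41 for Macrod1.

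The Gm14963 region (chr19:6268156-6269896 in the lists) was linked to 49 promoter fragments in replicate 1, to 44 in replicate 2 and to 30 in both, from 22 genes. Hi-C listed 8. Its distances ran from 3.96 to 207 kb with a median of 79.8 kb, 16 promoters lay to the left and 14 to the right, and 13 of the pairs were over 100 kb. All 30 promoters lay in a span of 367 kb with 47 listed promoter fragments. The farthest was AC131692.8, a promoter named by a clone in the lists, at 207 kb, and the nearest was Mir192, a microRNA gene, at 3.96 kb. Unlike the Sf1 intron region, the region had no called partner beyond 500 kb. Partners over 1 Mb were listed in single replicates, 1 in replicate 1 and 3 in replicate 2. For the Sf1 intron region these numbers were 0 and 5. Pairs over 1 Mb made up 0.371% of all replicate 1 pairs and 19.4% of all replicate 2 pairs. In the window the shares were 0.0822 and 4.68%.

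The MboI fragments beside both regions had fewer promoters, which follows in large part from the choice of the regions by 30 or more called promoters and is given as a description. Within 15 kb of the centre of the Sf1 intron region, 72 other fragments that were not promoter fragments had a median of 0 called promoters and at most 10, which belonged to the adjoining fragment of 1456 bp on its left (21 promoters in replicate 1 and 17 in replicate 2). Around the Gm14963 region 63 such fragments had a median of 0 and at most 5. This number was reached by the adjoining fragment of 543 bp on its right (9 promoters in replicate 1 and 11 in replicate 2). A member of 984 bp further right also reached it (12 in replicate 1 and 7 in replicate 2). That member joins fragments of 702 and 282 bp, centred 3.97 and 4.46 kb from the centre of the Gm14963 region, and its promoters are listed for both jointly. Stretches beside listed promoter fragments had no promoter in either replicate or in Hi-C. Examples are 6371018 to 6372348, in fragments of 20 to 350 bp, and 6274591 to 6275818, in fragments of 16 to 418 bp. Such stretches are among the fragments behind the medians of 0, and their part in these was not tested. When adjoining members were joined, the run of 5 members around the Sf1 intron region (4228 bp) had 31 promoters, so the neighbours added none to those of the region alone. The run of 4 members around the Gm14963 region (4141 bp) had 31, which is 1 more than the region alone.

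**Figure D2:**
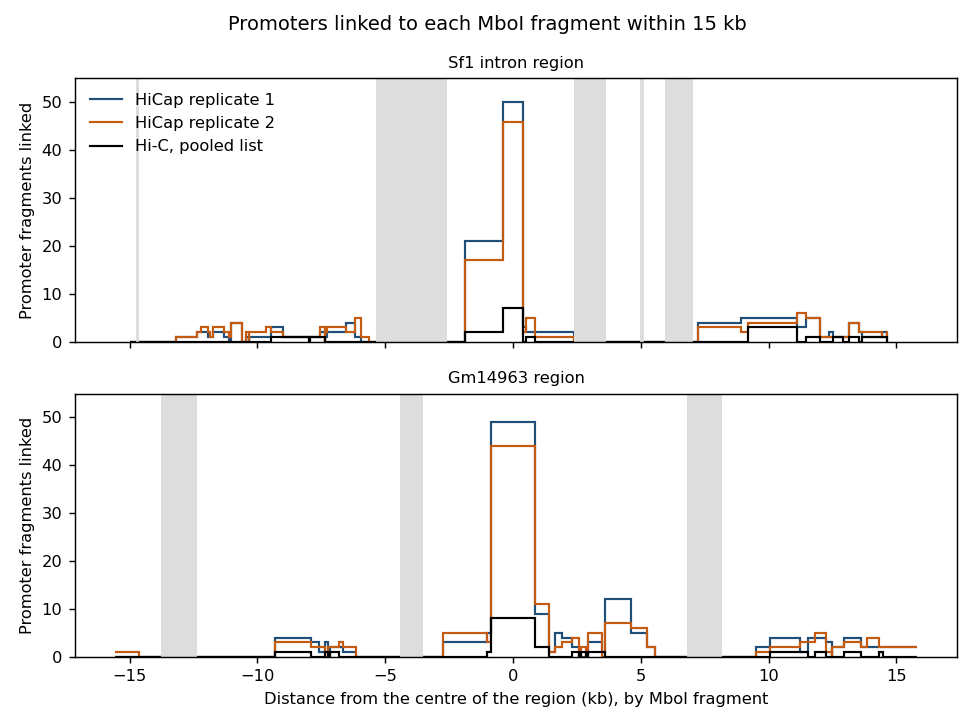
The number of promoter fragments linked to each MboI fragment is drawn against the distance in kb from the centre of the Sf1 intron region (top) and of the Gm14963 region (bottom), for each HiCap replicate and the pooled Hi-C list, with listed promoter fragments shaded in grey. The peaks of 50 and 46 promoters (top) and 49 and 44 (bottom) lay at the regions themselves, and the adjoining left fragment of the Sf1 intron region had 21 and 17. A listed region made of several MboI fragments gives its number to each of them.

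The centres of the regions are 98.3 kb apart, and many promoters were linked to both. In the called pairs, 20 promoter fragments were shared, which is 64.5% of those of the Sf1 intron region and 66.7% of those of the Gm14963 region, and 41 were linked to either. By gene name in the lists, 16 of 26 were shared. Clone names count apart here. The fragments named AC127556.10, AC167245.6, AC127556.5 and AC131692.6 hold start sites of Sf1, Nrxn2, Ehd1 and 1110014N23Rik, which are also counted, so distinct genes are fewer. Replicate 1 alone listed 35 shared promoters and replicate 2 alone 26. In Hi-C none of the 7 and 8 promoter fragments was shared, while by gene Atg2a was listed with both regions through different fragments. Both promoter sets come from the same called pairs, and the overlap is given without a test.

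The genes linked to both regions cover a range of functions. They include Men1 and Sf1, the kinases Map4k2, which acts upstream of JNK, and Cdc42bpg, an effector of Cdc42, and Ehd1, an ATPase of endocytic recycling. Further shared genes are Atg2a, a lipid transfer protein of autophagosome formation, Pygm, the glycogen phosphorylase of muscle, Rasgrp2, an exchange factor for the small GTPase Rap1, and Nrxn2, a presynaptic adhesion protein. Ppp2r5b, a regulatory subunit of protein phosphatase 2A, Arl2, a small GTPase that acts in tubulin folding, the sorting nexin gene Snx15, Gpha2, a subunit of the hormone thyrostimulin, and Mir192 were linked to both as well. So was Cdca5, which codes for sororin, a protein that stabilises cohesin on replicated chromosomes, at 282 kb from the Sf1 intron region and 184 kb from the Gm14963 region. The Cdca5 fragment also holds a start site of Zfpl1, and the Mir192 fragment also holds that of another microRNA gene, Mir194-2. The last shared gene is named AC127556.5 in the lists, and the fragment holds annotated start sites of Ehd1 and of Gm14963.

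Promoters linked to the Sf1 intron region but by name not to the Gm14963 region belonged to Bad, Macrod1, AC127556.10 and AC167245.6. The fragment named AC127556.10 holds start sites of Sf1 and Gm14966, and that named AC167245.6 holds start sites of Nrxn2 and Gm14965. Promoters linked to the Gm14963 region only belonged to 1110014N23Rik, 1700123I01Rik, AC131692.6, AC131692.8, Batf2, which codes for a transcription factor of the basic leucine zipper class, and Naaladl1, a peptidase gene. Several of these fell short in a single replicate: 1110014N23Rik was listed with the Sf1 intron region in replicate 1, and Naaladl1 in replicate 2. Batf2 and 1700123I01Rik were listed with the Sf1 intron region in neither replicate.

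**Figure D3:**
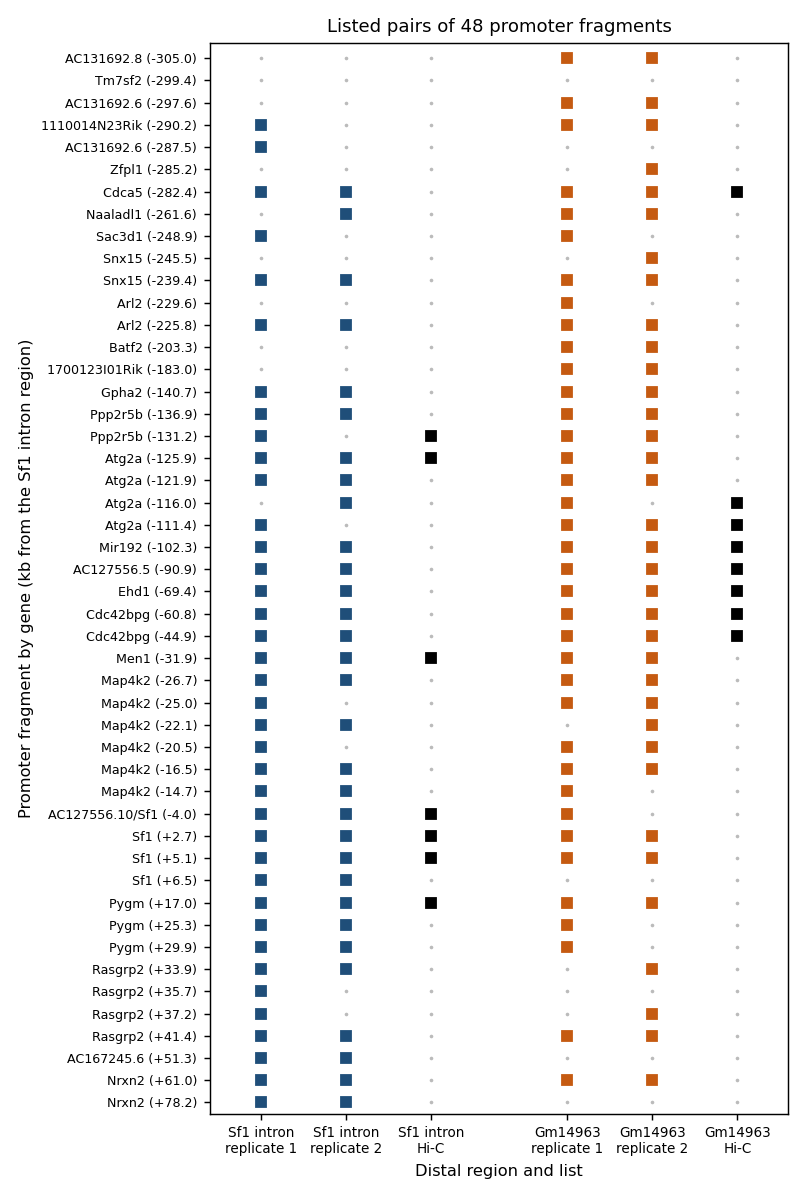
Rows are the 48 promoter fragments listed in the span of both regions' partners, ordered along the chromosome and labelled with the gene and the distance in kb from the Sf1 intron region, and columns are the lists. A filled square is a listed pair and a dot an unlisted one, and the 7 and 8 Hi-C squares of the regions fall on different rows.

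Of the 48 promoter fragments listed in the span of the partners of both regions, 39 were linked to either in both replicates, 20 to both, 9 to the Sf1 intron region only and 10 to the Gm14963 region only. The other 9 had neither region in both replicates, and only 1, of Tm7sf2 with 174 bp, was listed with neither in any replicate. That fragment had 2 distal regions in replicate 1, 11 in replicate 2 and none in both. The median length was 732 bp over the 39 linked fragments and 494 bp over the 9 without.

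Over the whole window, 54 promoter fragments of 36 genes were linked to at least 1 member, with a median of 3 members and a range from 1 to 39. Of these, 41 (75.9%) were linked to the Sf1 intron region or the Gm14963 region, and 13 to neither. The promoter fragments with the most members were both of Cdc42bpg, with 39 members for the fragment at 6321771 and 38 for that at 6306331. The fragment of AC127556.10 and Sf1 had 35, AC127556.5 had 29, and Capn1, which codes for the protease calpain 1, and Fau, which codes for a precursor of a ribosomal protein, had 23 each. AC131692.8 followed with 20, Syvn1 and Batf2 with 18 each, and Men1 and a fragment of AC131692.6 with 17 each. At the other end, 13 fragments had a single member, which was the Sf1 intron region or the Gm14963 region for 11 of them and a member in Syvn1 for Dpf2 and for a fragment of Arl2. Annotated start sites were found in 52 of the 54 fragments, and the CTCF core in 8 (14.8%, against 6.95% of all promoter fragments with a call), 7 of them linked to either region.

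The Men1 promoter fragment (chr19:6334847-6336173) was listed with 56 distal regions in replicate 1, 76 in replicate 2 and 17 in both, all of them in the window. Hi-C listed 13 and held 6 of the 17 called pairs. The median distance was 6.92 kb. The called partners included the Sf1 intron region at 31.9 kb, which Hi-C also listed, with 7 listed promoters in between, and the Gm14963 region at 66.5 kb, its farthest, which Hi-C did not list.

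Sf1 was covered by 4 promoter fragments, which lie on both sides of the Sf1 intron region. The fragment of 2784 bp to its left (chr19:6362022-6364806) was named AC127556.10 in most lines and was listed with 104 distal regions in replicate 1, 124 in replicate 2, 35 in both and 5 in Hi-C. It was linked to the Sf1 intron region at 3.96 kb in both replicates and in Hi-C, while the pair with the Gm14963 region was listed in replicate 1 only. The fragments of 562, 169 and 1118 bp to the right of the intron region were linked to it at 2.65, 5.06 and 6.50 kb, and the first and second of them also to the Gm14963 region, at 101 and 103 kb. The fragment of 169 bp had the most members of these 3, with 12.

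A second group of members with many promoters lay in Syvn1, which codes for a ubiquitin ligase of the endoplasmic reticulum, and Mrpl49, which codes for a mitochondrial ribosomal protein. It held 4 members between 6050034 and 6053804, with 12, 14, 12 and 12 promoters. Together they were linked to 19 promoter fragments of 17 genes, and 6 of the fragments, those of 1110014N23Rik, AC131692.6, AC131692.8, Capn1, Fau and Syvn1, were linked to all 4. The median distance was 30.6 kb, and only 2 of the 50 pairs were over 100 kb. Of the 19 fragments, 7 were also linked to the Gm14963 region and 3 of these to the Sf1 intron region as well. The remaining members with 10 or more promoters were an exonic fragment of the sterol reductase gene Tm7sf2, with 11, and the adjoining left fragment of the Sf1 intron region, with 10. The Tm7sf2 member holds an annotated start site of Tm7sf2.

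The called pairs of the window had a median distance of 13.8 kb (quartiles 6.03 and 34.8 kb), against 10.3 kb over all called pairs. Taken over each list's own window pairs, the median was 24.8 kb in replicate 1, 53.7 kb in replicate 2 and 10.5 kb in Hi-C. Pairs over 100 kb numbered 35 of 463 (7.56%), against 6.32% of all called pairs. The Sf1 intron region and the Gm14963 region held 61 of the 463 pairs (13.2%) and 23 of the 35 pairs over 100 kb (65.7%). They held 29.7% of the window pairs over 100 kb in replicate 1 and 9.71% in replicate 2, where 525 such pairs were spread over 307 regions. After the pairs of Macrod1, Bad and Cdca5 with the Sf1 intron region, the longest were those of Cdc42bpg with a member of the Syvn1 group, at 269 kb, and of AC131692.8 with a member in an exon of Cdc42bpg, at 253 kb.

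The listing of the same pair in both replicates chose the members, so the shares that follow describe the choice. Replicate 1 listed 1217 pairs in the window and replicate 2 listed 1473. Of these, 463 were in both, which is 38.0% of replicate 1 (19% over all pairs) and 31.4% of replicate 2 (17.1% over all pairs). For the Sf1 intron region the 31 pairs in both made up 62.0% of its replicate 1 pairs and 67.4% of its replicate 2 pairs, and for the Gm14963 region the 30 were 61.2% and 68.2%. Below 5 kb 63.2% of the window pairs of replicate 1 were in replicate 2 (31.6% over all pairs of that distance), and over 100 kb 19.2% (7.37%). For replicate 2 the shares were 76.5% below 5 kb (58.0%) and 6.67% over 100 kb (2.16%).

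Hi-C was not used to choose the members and gave a separate listing without capture. It held 67 of the 463 called pairs, or 14.5% (exact binomial 95% interval 11.4 to 18.0%), against 12.5% of all called pairs, which lies within the interval. The intervals cover counting error only, and pairs that share a fragment are not independent. Below 5 kb Hi-C held 30.8% of the called pairs of the window (21.5 to 41.3%), against 20.7% of all. From 5 to 10 kb the values were 19.6% (12.2 to 28.9%) against 15.9%, from 10 to 25 kb 7.41% (3.25 to 14.1%) against 9.61%, and from 25 to 100 kb 7.58% (3.69 to 13.5%) against 4.78%. Over 100 kb Hi-C held 2 of the 35 pairs, or 5.71% (0.700 to 19.2%), against 2.70% of all called pairs over 100 kb. Only below 5 kb did the interval exclude the value over all called pairs. Seen from Hi-C, 67 of its 207 window pairs were called in HiCap (32.4%, 26.0 to 39.2%), against 15.8% of all Hi-C pairs. This last share counts the HiCap calls, which chose the members, and is given as a description only.

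**Figure D4:**
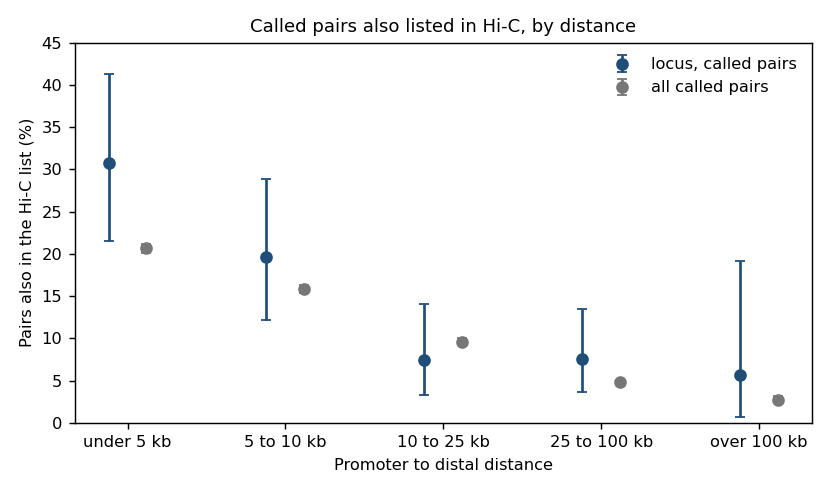
The share of called HiCap pairs that the pooled Hi-C list also holds (%, vertical axis) is drawn by promoter to distal distance, for the pairs of the locus and for all called pairs, with exact binomial 95% intervals as bars. The share falls from 30.8% below 5 kb to 5.71% over 100 kb in the locus, and from 20.7% to 2.70% over all called pairs.

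The share of members that Hi-C listed was higher in the classes with more HiCap promoters. Of the members with 1 promoter, Hi-C listed 38 of 139 with any promoter (27.3%, 20.1 to 35.5%), and of those with 2 to 9 it listed 38 of 75 (50.7%, 38.9 to 62.4%). All 8 members with 10 or more promoters were listed (exact lower limit 63.1%), with 1 to 8 Hi-C promoters each. Over all called regions the corresponding shares were 18.6, 46.7 and 95.8%. The classes also differed in median length, with 460, 523 and 938.5 bp among the members and 549, 665 and 1026 bp over all called regions. A region with more called promoters also has more pairs that Hi-C could hold, so some rise was set in advance. The parts of this and of length in these shares were not tested. Within the window the Gm14963 region had the most Hi-C promoters, 8, and the Sf1 intron region shared second place with the Syvn1 member of 652 bp, both with 7. Among the 67 Hi-C regions of the window that were not members, none had over 3. Among all 66871 Hi-C regions the Gm14963 region ranked 15th and the Sf1 intron region 20th, in ties of 5 and 19 regions.

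The Hi-C partners of the regions were mostly their nearer ones. For the Sf1 intron region they were 3 promoter fragments of Sf1 at 2.65, 3.96 and 5.06 kb, Pygm at 17.0 kb, Men1 at 31.9 kb, Atg2a at 126 kb and Ppp2r5b at 131 kb. For the Gm14963 region they were Mir192 at 3.96 kb, AC127556.5 at 7.49 kb, fragments of Atg2a at 13.1 and 17.6 kb, Ehd1 at 29.0 kb, fragments of Cdc42bpg at 37.5 and 53.5 kb, and Cdca5 at 184 kb. All but the pairs with Ppp2r5b and with Atg2a at 17.6 kb were called in HiCap, and each of these was listed in replicate 1 and not in replicate 2. Hi-C held 6 of the 31 called pairs of the Sf1 intron region (19.4%, 7.45 to 37.5%) and 7 of the 30 of the Gm14963 region (23.3%, 9.93 to 42.3%), and the value over all called pairs, 12.5%, lies within both intervals. Over 15 kb the share for both regions jointly was 7 of 53 (13.2%, 5.48 to 25.3%), against 5.35% of all called pairs over 15 kb, and for the other members of the window it was 7 of 169 (4.14%, 1.68 to 8.35%). The 53 pairs have 2 distal regions between them. These shares count identical pairs. With a match to a Hi-C region within 1 kb, the share over 15 kb was 15.1% (8 of 53) for both regions jointly. It was 18.3% (31 of 169) for the other members and 14.3% for all called pairs. The higher share of both regions than of the other members was thus seen with identical pairs only. The part of fragment length in it was not tested.

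Across all chromosomes the Sf1 intron region held the third place by promoters, in a tie, and the Gm14963 region the fifth. The other regions with 30 or more promoters were 3 on chromosome 11, with 36, 32 and 31 promoters. Hi-C held 19.4, 21.9 and 25.8% of the called pairs of these, and their median distances were 107, 60.7 and 73.7 kb, so the 23.3% and 79.8 kb of the Gm14963 region lay within these ranges and the 51.3 kb of the Sf1 intron region lay below them. The Sf1 intron region was shorter, at 803 bp, than the 1087, 1134 and 1630 bp of the chromosome 11 regions, and its G+C content of 42.8% was below their 52.7, 55.4 and 48.5%. Its longest pair, at 764 kb, stood beside longest pairs of 627, 515 and 212 kb. Neither value was particular to it, since the next region in the order, on chromosome 10 with 28 promoters, had a pair of 1055 kb, and the one after it, on chromosome 18 with 27, a G+C content of 37.3%. Such regions are few, and no test was made.

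Genes that work with menin and with splicing factor 1 were examined as lists. In the list of the menin complex, which includes Men1, 10 of 12 genes that the HiCap lists name had at least 1 called distal region, with a median of 5. In that of the early spliceosome, which includes Sf1, 9 of 12 had one, with a median of 3. Without Men1 and Sf1, which belong to the locus, the counts were 9 of 11 and 8 of 11, each with a median of 3. Over all listed genes 60.7% had one, and the median was 1. Jund, a transcription factor that binds menin, had 31 called distal regions and Ash2l, a subunit of the methyltransferase complexes, had 28, beside 17 for Men1. Among splicing genes Sf3b1, a subunit of U2 snRNP, had 17 and U2af2, the partner of splicing factor 1 at the polypyrimidine tract, had 6. Sf1 had 12 by the fragments that carry its name and 37 when the fragment of 2784 bp, which holds an Sf1 start site, was counted with them. No test was made on the lists.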

How the data were processed

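The deposited files are 4 lists of interactions, 1 for each HiCap replicate, 1 that combines them and 1 for Hi-C, and their values are start and end positions on mm9, with no normalization and no read numbers. According to the methods, the authors mapped both mates of a HiCap read pair to mm9 independently, removed multi-mapping reads, duplicates and pairs closer than 1 kb, placed the mates on MboI fragments, and required a minimum of 3 read pairs. For Hi-C the minimum of read pairs is not given in the sources used here. A promoter to distal pair that is not listed was below the minimum, removed by these filters or not seen. According to the methods, interactions between promoters were called separately. No member overlapped a listed promoter fragment by over 5 bp, so contacts between captured promoters are outside these lists.

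Pairs were taken as distinct combinations of promoter fragment and distal region, and as called where both replicate lists held the identical pair. Distance was taken between midpoints. Genes were counted by the names in the lists, where a clone name counts apart from the gene whose start site its fragment holds. Exons, introns and start sites came from GENCODE for mm9 without pseudogenes, and sequences and MboI sites from the NCBIM37 genome. The tables were built in Python 3.11.15 with pandas 2.3.3 and scipy 1.17.1, and the steps were tested on simulated lists. Shares carry exact Clopper-Pearson 95% intervals. Hi-C is a single pooled sample, so no test between samples was made.

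The members and lists were chosen with earlier results of these data known. Named genes are those linked to the regions with 30 or more promoters, those of the 10 regions and the 10 promoter fragments with the most partners and of the 5 longest pairs, the nearest promoters, Men1, Sf1 and the lists for menin and splicing. Tm7sf2, Dpf2 and a few others were named after their values were seen. The alternatives were each replicate alone, the combined list, pairs over 15 kb, genes in place of promoter fragments, matching within 1 kb, joined fragments, distances between edges and a window by overlap.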

Additional observations from a re-analysis of the deposited data

How the results depend on the processing

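The counts followed the rule that a pair be in both replicates. With a single replicate the window held 1217 to 1473 pairs and 446 to 537 distal regions, the Sf1 intron region had 46 to 50 promoters, the Gm14963 region 44 to 49, both together 26 to 35, the median distance was 24.8 to 53.7 kb, and Hi-C held 5.43 to 8.79% of the pairs. Over 15 kb there were 222 pairs, 100 distal regions, a Hi-C share of 6.31%, and shares in the other replicate of 29.1% for replicate 1 and 19.8% for replicate 2. Joining adjoining fragments left 124 regions, and counting genes gave 20 for the Sf1 intron region. With a match on the gene, the Hi-C share was 20.5% and that of replicate 1 in replicate 2 was 44.2%. With a match within 1 kb, the shares were 42.1% for Hi-C, 72.3% for replicate 1 and 54.1% for replicate 2. Of 46 alternative values, 24 stayed within 1.5 times the count or within 1 SD of the replicates. The combined list gave the same 463 pairs in number, with 8 of the 54 promoter fragments replaced by others nearby.

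No paired analysis was possible because no comparison between groups was tested, the lists hold no read numbers and the Hi-C replicates are pooled. The depth of Hi-C and its minimum of read pairs are unknown here, so a pair missing from its list is not shown to be absent.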
